A study of Mus musculus with 36 samples.

Results

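The collagen prolyl and lysyl hydroxylases are represented here by 8 genes, taken by name from the 22558 genes listed in each of 2 expression tables. They are P4ha1, P4ha2 and P4ha3, the catalytic alpha subunits of prolyl 4-hydroxylase; P4hb, its beta subunit; Plod1, Plod2 and Plod3, the lysyl hydroxylases; and Lepre1, a prolyl 3-hydroxylase now also called P3h1. The rule names genes and uses no measured value, but the list was drawn up with earlier results of these data known. The 36 libraries were made from total RNA of C57BL/6 mice given PBS (the control), DMOG or Roxadustat, with 6 libraries for each treatment under each of the tissue labels liver and retina. DMOG is a cell-permeable analog of 2-oxoglutarate that blocks 2-oxoglutarate-dependent dioxygenases broadly, and roxadustat is an inhibitor of the prolyl hydroxylases that mark hypoxia-inducible factor (HIF) alpha subunits for degradation. The labels give no dose, time, age or sex, and do not say whether the 6 libraries of a group came from separate animals, so the p-values below reflect how these libraries vary, which may be technical in part.

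The transcriptomes went against the tissue labels. The arrestin gene of rods, Sag, stood at a median of 2588 FPKM (fragments per kilobase of transcript, scaled by the library's fragment total) with the label liver and at 0.163 FPKM with the label retina, over 18 libraries each. Apoa1, an apolipoprotein gene of the liver, had a median of 0.278 FPKM over the libraries labelled liver and 9038 FPKM over those labelled retina. The label is therefore kept as a name in all that follows, with the transcriptome beside it: the libraries labelled retina hold a liver transcriptome, and those labelled liver hold a retina transcriptome.

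Collagen chains are hydroxylated in the endoplasmic reticulum before they fold. Prolyl 4-hydroxylase is a tetramer in which an alpha subunit does the chemistry and P4HB, which is also protein disulfide isomerase, keeps it soluble; the 4-hydroxyproline it makes holds the triple helix together at body temperature. Lysyl hydroxylases prepare collagen for crosslinks and for attached sugars, PLOD2 acting on the telopeptides and PLOD3 also carrying glycosyltransferase activity, and the product of Lepre1 works in a complex with those of Crtap and Ppib. All of these hydroxylases, other than the beta subunit, use oxygen, iron, 2-oxoglutarate and ascorbate, and P4ha1, P4ha2, Plod1 and Plod2 are textbook targets of HIF.

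The upstream sequences of the genes that form the prolyl 4-hydroxylase tetramer are shown because P4ha1 and P4ha2 were higher with both compounds in the libraries labelled retina while P4hb was not called. Each line gives the 250 bases before the annotated start, 5′ to 3′ on the gene's strand, from RefSeq on GRCm38.p6; the capitals mark the 5-base core of the HIF binding element, ACGTG or GCGTG, on either strand. The windows lie at chr10:59323046-59323295 on the plus strand for P4ha1, chr11:54100674-54100923 on the plus strand for P4ha2, and chr11:120573254-120573503 on the minus strand for P4hb.
P4ha1: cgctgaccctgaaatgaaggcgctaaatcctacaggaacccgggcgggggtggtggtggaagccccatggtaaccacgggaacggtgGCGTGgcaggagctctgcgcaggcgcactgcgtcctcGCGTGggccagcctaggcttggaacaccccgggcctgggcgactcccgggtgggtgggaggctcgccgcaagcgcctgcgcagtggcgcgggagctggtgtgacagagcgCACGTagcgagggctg
P4ha2: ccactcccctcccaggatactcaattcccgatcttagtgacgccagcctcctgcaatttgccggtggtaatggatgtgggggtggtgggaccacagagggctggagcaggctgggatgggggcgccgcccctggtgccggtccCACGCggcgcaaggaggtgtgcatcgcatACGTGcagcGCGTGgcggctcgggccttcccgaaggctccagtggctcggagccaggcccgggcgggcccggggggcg
P4hb: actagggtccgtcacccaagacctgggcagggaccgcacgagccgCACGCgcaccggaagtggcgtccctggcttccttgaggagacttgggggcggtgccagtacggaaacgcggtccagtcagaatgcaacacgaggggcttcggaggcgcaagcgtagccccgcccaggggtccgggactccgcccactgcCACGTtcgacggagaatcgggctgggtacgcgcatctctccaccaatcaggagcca
The P4ha1 window held 3 such cores, the nearest 16 to 12 bases before the start. The P4ha2 window also held 3, of which 2 lay close together, 78 to 74 and 69 to 65 bases before the start. The P4hb window held 2 cores. Of the 8 genes, 7 matched an entry of the RefSeq table, the exception being Plod2. The same window held 4 cores in Plod3, 2 in each of the 2 entries of Lepre1, 1 in Plod1 and 0 in P4ha3. None of these cores was part of CACGTG, the E-box. Over all 32851 entries of the table, 38.6% held at least 1 core, 13.5% at least 2 and 4.65% at least 3. These matches describe letters and were not tested as binding sites.

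Of the 8 genes, 7 averaged 0.5 FPKM or more across each table's libraries and were tested, among 12657 genes with the label retina and 13779 with the label liver. P4ha3 did not reach that level in either table. A gene is called here when limma's adjusted p, taken over all genes tested in a table, is under 0.05, and fold changes are differences in mean log2(FPKM + 0.5), on which low genes such as P4ha2 appear to change less than they did. The comparisons of DMOG and of roxadustat with PBS share the same PBS libraries within a table. The total of a library was 433021 to 540324 FPKM with the label retina and 542785 to 617853 FPKM with the label liver, and relative depth ran from 0.739 to 1.25 and from 0.817 to 1.29. By Xist and Y-linked genes, 3, 4 and 1 of the 6 PBS, DMOG and roxadustat libraries labelled retina were female, and 3, 2 and 3 of those labelled liver. DMOG replicate 5 labelled retina stood apart from the other 5 DMOG libraries, and its P4ha1, P4ha2 and Plod2 levels lay within the PBS range. Over all tested genes its highest correlation with another library was 0.9911, against 0.9834 to 0.9867 for the other DMOG libraries. For the PBS libraries that value was 0.9885 to 0.992. Why this library lay near PBS was not tested. The comparisons of DMOG with PBS for the 7 tested genes with the label retina are given with and without DMOG replicate 5. Roxadustat comparisons with that label share its spread and are given without it for part of the genes. This library was set apart after the data were seen, in part on the levels of these same genes. The values without it are therefore no independent support for the calls.

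In the libraries labelled retina (liver transcriptome), 4 of the 7 genes tested were higher with DMOG than with PBS: P4ha2, P4ha1, Plod3 and Plod2. Of all genes tested in that comparison, 8.26% were called higher. With roxadustat, 3 of the 7 were higher, P4ha1, P4ha2 and Plod2, against 2.16% of all genes. P4hb, Plod1 and Lepre1 were called with neither compound. In RNA from whole tissue, fewer or more cells of a type and less or more RNA per cell cannot be told apart.

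P4ha1 encodes the alpha subunit that is most widely expressed. The 6 PBS libraries labelled retina ranged from 4.59 to 6.70 FPKM with a median of 5.98. The DMOG libraries had 19.1, 16.9, 16.9, 20.6, 5.36 and 18.03 FPKM in replicates 1 to 6, and the roxadustat libraries ranged from 13.2 to 14.9 with a median of 13.5. All 6 roxadustat libraries and 5 of the 6 DMOG libraries lay above the highest PBS library, and DMOG replicate 5 lay among the PBS libraries. The log2 fold change was 1.30 ± 0.22 (standard error) with DMOG (adjusted p = 0.00114) and 1.19 ± 0.22 with roxadustat (adjusted p = 0.00415). Mean levels were 2.77 and 2.37 times the PBS mean. Leaving out DMOG replicate 5, the DMOG difference was 1.58 ± 0.09 (adjusted p = 4.84e-10).

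P4ha2 encodes the second alpha subunit and was the lowest of the 7 tested genes with PBS in these libraries. It ranged from 0.594 to 1.02 FPKM with PBS, with a median of 0.729. With DMOG it had 8.64, 12.9, 7.34, 8.55, 0.959 and 7.51 FPKM in replicates 1 to 6. With roxadustat it ranged from 1.85 to 3.53 FPKM with a median of 2.78. The 3 groups were thus stepped, with 5 DMOG libraries above every roxadustat library and every roxadustat library above every PBS library, while DMOG replicate 5 again lay within the PBS range. The log2 fold change with DMOG was 2.44 ± 0.35 (adjusted p = 0.000792), the 14th highest of 12657 genes, and the mean was 9.97 times that of PBS. Without DMOG replicate 5 these became 2.88 ± 0.14 (adjusted p = 1.28e-10) and 11.7 times.

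With roxadustat P4ha2 rose by 1.35 ± 0.35 on the log2 scale (adjusted p = 0.0365), to 3.60 times the PBS mean. That call rested on a spread that DMOG replicate 5 widened: without this library the standard error fell to 0.14 and the adjusted p to 2.97e-06. With all DMOG libraries kept, the call was lost on leaving out any of the 6 PBS libraries or any of roxadustat replicates 1 to 5. The adjusted p was then at most 0.0805. Over every library left out in turn, including those that kept the call, the log2 fold change stayed between 1.29 and 1.44. Not one of the roxadustat libraries overlapped the PBS libraries for P4ha1, P4ha2 or Plod2, a separation upward that held for 2.76% of all genes tested.

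P4ha3, the third alpha subunit gene, was near 0 throughout. It ranged from 0.0534 to 0.263 FPKM over the 18 libraries labelled retina and from 0.0308 to 0.411 over the 18 labelled liver, and was not tested.

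**Figure D1:**
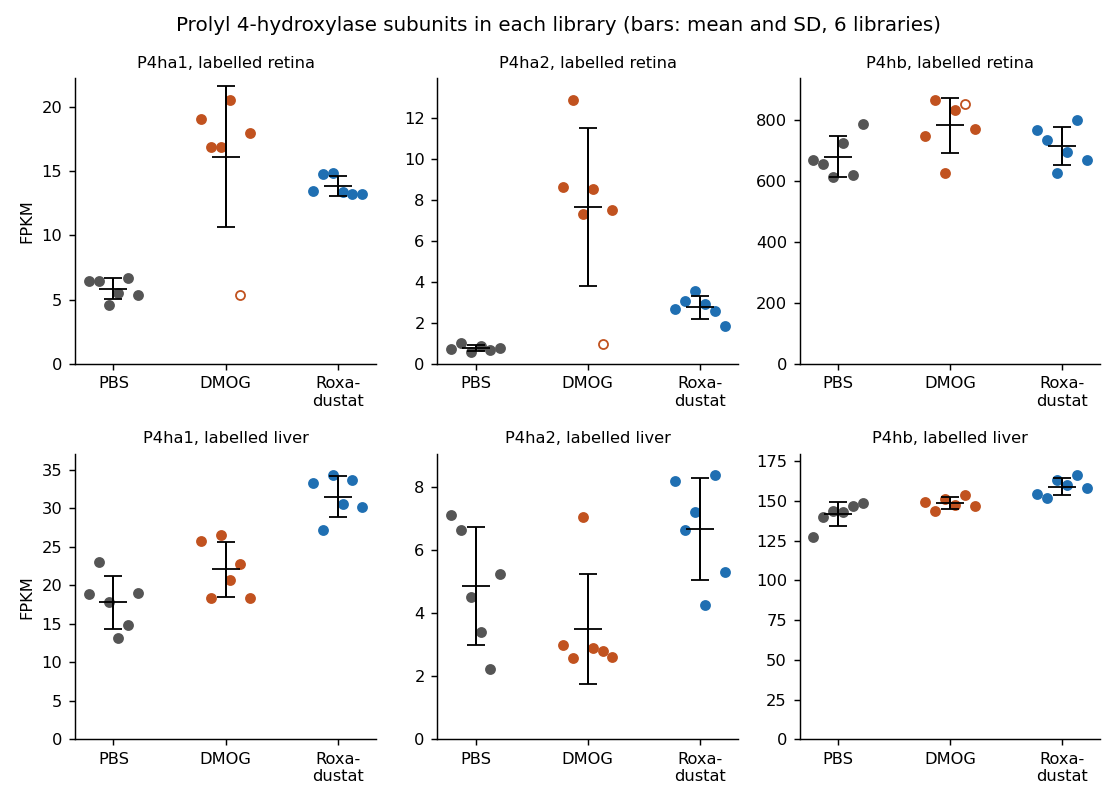
FPKM of P4ha1, P4ha2 and P4hb in each library (points), by treatment, with the group mean and SD of 6 libraries (bars); the upper row is labelled retina (liver transcriptome), the lower row labelled liver (retina transcriptome), and the open circle is DMOG replicate 5. In the upper row P4ha1 and P4ha2 stand above PBS in every library but the open circle, while the P4hb groups overlap.

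P4hb was by far the most abundant of the 8 in both tables. In the libraries labelled retina it ranged from 614 to 787 FPKM with PBS (median 663), from 624 to 867 with DMOG (median 800) and from 627 to 799 with roxadustat (median 713). The 3 groups overlapped. On the log2 scale P4hb differed from PBS by 0.20 with DMOG (95% interval 0.01 to 0.40, adjusted p = 0.132) and 0.08 with roxadustat (−0.12 to 0.27, adjusted p = 0.704). Dropping DMOG replicate 5 gave 0.17 with DMOG (−0.03 to 0.38, adjusted p = 0.171). Neither passed the threshold; leaving out DMOG replicate 3 brought the DMOG comparison past it (adjusted p = 0.0398, log2 fold change 0.26).

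The balance of the subunit transcripts moved with these differences, as FPKM is per length and can be compared between genes. In the libraries labelled retina, P4ha2 made up 11.3 ± 1.88% of the summed alpha subunit FPKM with PBS (SD, n = 6), 29.6 ± 9.02% with DMOG and 16.4 ± 2.34% with roxadustat. The DMOG value was 32.5 ± 5.97% without replicate 5 (n = 5). For each FPKM of alpha subunit there were 101 ± 17.4 FPKM of P4hb with PBS, 45.1 ± 42.1 with DMOG and 42.9 ± 5.58 with roxadustat. DMOG replicate 5 stood at 131, and the other 5 DMOG libraries at 27.9 ± 1.74, so that the DMOG mean lay above that of roxadustat with this library and below it without. In the libraries labelled liver the beta subunit was in far smaller excess, 6.52 ± 1.72 FPKM per alpha FPKM with PBS, 5.95 ± 0.97 with DMOG and 4.18 ± 0.37 with roxadustat. There P4ha2 held 20.7 ± 4.55% of the alpha sum with PBS, 13.2 ± 3.85% with DMOG and 17.3 ± 3.11% with roxadustat. These ratios are descriptions of the levels already given and were not tested.

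**Figure D2:**
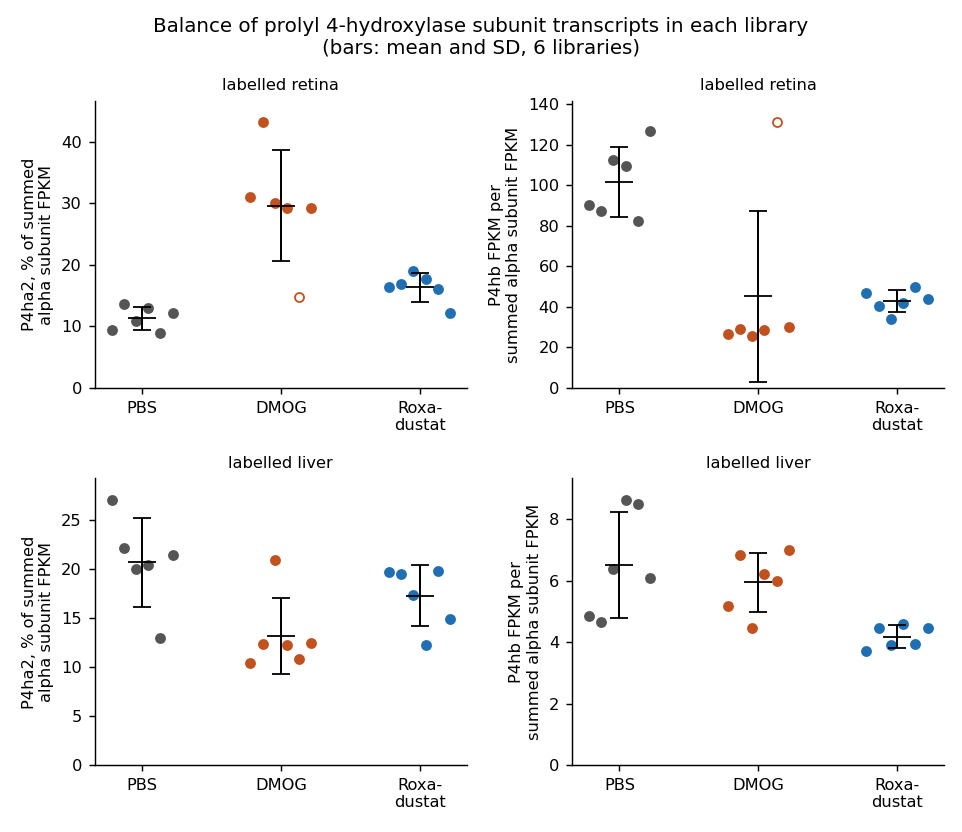
Share of P4ha2 in the summed alpha subunit FPKM (left, percent) and P4hb FPKM per summed alpha subunit FPKM (right) in each library, with mean and SD of the 6 libraries of a group; the open circle is DMOG replicate 5 labelled retina. In the upper row (labelled retina) the filled DMOG points have the highest P4ha2 shares and the lowest P4hb ratios, and the open circle lies at 131 P4hb per alpha FPKM.

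Among the lysyl hydroxylases, Plod2 was the scarcest in the libraries labelled retina and was higher with both compounds. It ranged from 1.25 to 1.81 FPKM with PBS (median 1.44) and from 2.42 to 3.26 with roxadustat (median 2.78). The DMOG libraries had 2.21, 4.29, 2.56, 2.07, 1.64 and 2.46 FPKM in replicates 1 to 6, so that replicate 5 alone fell within the PBS range. Plod2 rose on the log2 scale by 0.58 ± 0.14 with DMOG (adjusted p = 0.00736) and 0.75 ± 0.14 with roxadustat (adjusted p = 0.00364). Dropping DMOG replicate 5 gave 0.67 ± 0.13 with DMOG (adjusted p = 0.000635). Plod2 made up 4.43 ± 0.73% of the summed Plod FPKM with PBS, 5.78 ± 1.67% with DMOG and 6.60 ± 1.03% with roxadustat. The DMOG share was 5.82 ± 1.86% without replicate 5 (n = 5).

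Plod3, whose product also adds sugars to hydroxylysine, was called with DMOG only. It ranged from 7.26 to 9.60 FPKM with PBS (median 8.73). With DMOG it had 15.6, 12.5, 16.5, 18.3, 7.23 and 13.4 FPKM in replicates 1 to 6, and with roxadustat it ranged from 8.57 to 14.6 (median 10.97). The 5 DMOG libraries other than replicate 5 lay above every PBS library, and 5 of the 6 roxadustat libraries did so too. Plod3 rose by 0.62 ± 0.17 on the log2 scale with DMOG (adjusted p = 0.015), and differed by 0.36 ± 0.17 with roxadustat (95% interval 0.01 to 0.71, adjusted p = 0.252). Dropping DMOG replicate 5 gave 0.79 ± 0.12 with DMOG (adjusted p = 6.97e-05) and an adjusted p of 0.0562 with roxadustat. The difference between the compounds did not pass the threshold with all libraries kept.

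Plod1, the most abundant lysyl hydroxylase here, was not called with either compound when all libraries were kept. It ranged from 21.4 to 26.5 FPKM with PBS, from 20.5 to 31.4 with DMOG and from 25.9 to 31.9 with roxadustat (medians 23.3, 27.2 and 29.3). Only the lowest roxadustat library and DMOG replicate 5 fell below the highest PBS library. Against PBS the log2 fold change of Plod1 was 0.20 with DMOG (95% interval 0.01 to 0.39, adjusted p = 0.122) and 0.31 with roxadustat (0.12 to 0.50, adjusted p = 0.0639). Both were called without DMOG replicate 5, at 0.28 ± 0.07 (adjusted p = 0.00705) and 0.31 ± 0.07 (adjusted p = 0.0102). Without that library 5 of the 7 genes were thus higher with DMOG, against 17.3% of all genes, and 4 of the 7 with roxadustat, against 4.12%.

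Lepre1 was called with neither compound when all libraries were kept at equal weight. It ranged from 9.02 to 11.2 FPKM with PBS (median 10.4), from 9.57 to 11.6 with DMOG (median 10.1) and from 11.1 to 13.1 with roxadustat (median 11.7). The DMOG and PBS libraries overlapped, and 5 of the 6 roxadustat libraries lay above the highest PBS library. The log2 fold change was 0.02 with DMOG (95% interval −0.13 to 0.16, adjusted p = 0.889), whose sign turned under an equal total per library (-0.0756) and without DMOG replicate 5 (-0.0124), and 0.20 with roxadustat (0.06 to 0.34, adjusted p = 0.0957). Without DMOG replicate 5 the roxadustat comparison had an adjusted p of 0.0587. With limma's array weights it was called (0.21, adjusted p = 0.0232), where 12.6% of all genes were.

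Markers of cells that make collagen were measured in the same libraries. Of 14 stellate cell and fibroblast markers tested with the label retina, Hgf and Vim were higher and Des lower with DMOG, and Ngfr and Pdgfrb lower with roxadustat. Their summed level was 280 to 297 FPKM with PBS, 274 to 352 with DMOG and 259 to 324 with roxadustat. Of 6 pericyte markers tested, Kcnj8 and Abcc9 were higher with DMOG, and Kcnj8 was higher and Pdgfrb lower with roxadustat; the summed level was 70.8 to 91.3, 78.9 to 104 and 93.9 to 107 FPKM. Of 13 endothelial markers, Flt1 was higher with both compounds and Pecam1 with DMOG, and of 12 macrophage markers limma called 0 with either (1 with DMOG and 0 with roxadustat at an unadjusted p under 0.05). In these fits 20.0% of all genes were called in either direction with DMOG and 4.19% with roxadustat. Once DMOG replicate 5 was left out, 7 of the 12 macrophage markers and 4 of the 13 endothelial markers were higher with DMOG, where 17.3% of all genes were. With an equal total per library, Hgf and Vim were no longer called, and 1 pericyte and 1 endothelial marker stayed higher with DMOG. With sex as a covariate the 4 DMOG calls were made again, and the 3 roxadustat calls with Plod1 added. The part of these cell types in the differences was not tested.

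**Figure D3:**
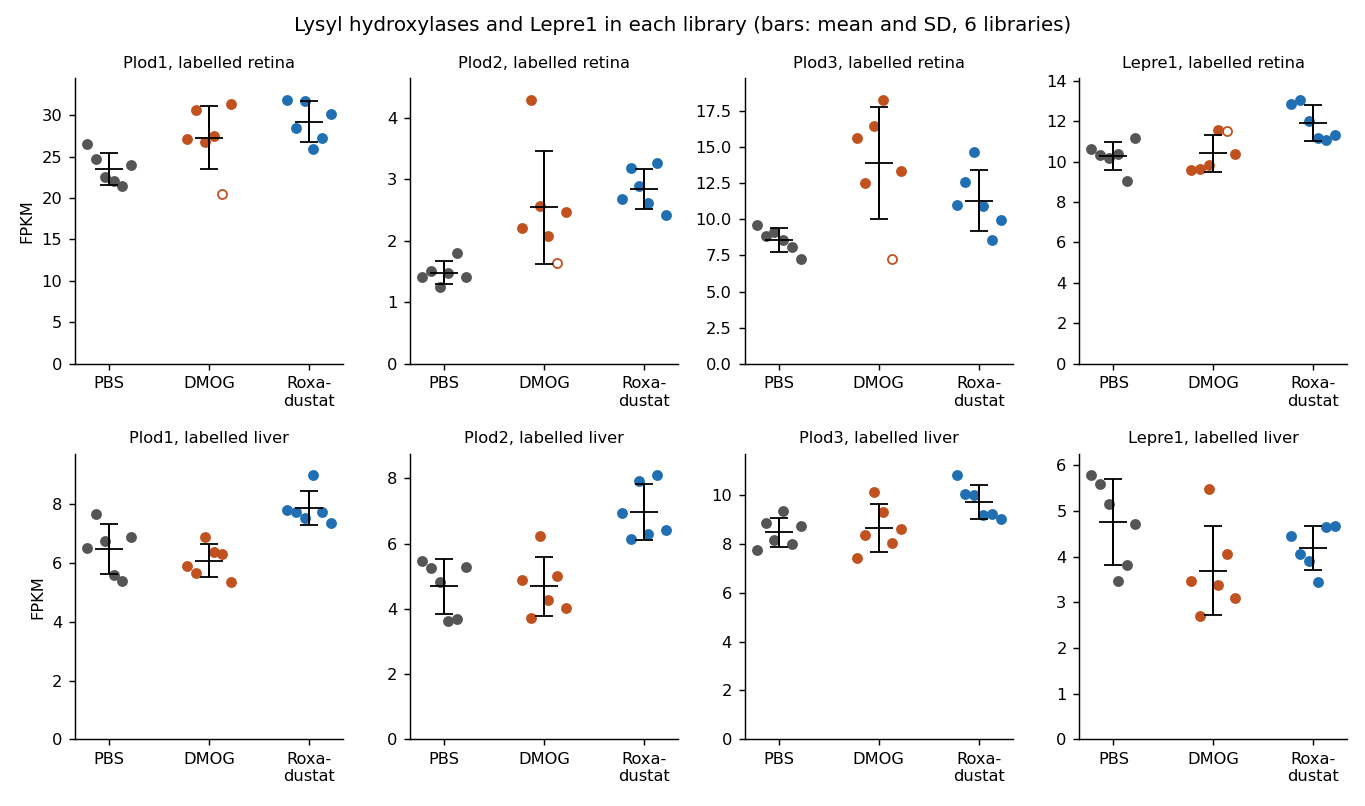
FPKM of Plod1, Plod2, Plod3 and Lepre1 in each library (points), by treatment, with the group mean and SD of 6 libraries (bars); the upper row is labelled retina, the lower row labelled liver, and the open circle is DMOG replicate 5 labelled retina. Plod2 in the upper row lies at 1.25 to 1.81 FPKM with PBS and at 2.42 to 3.26 with roxadustat, and in the lower row at 3.61 to 5.48 and 6.13 to 8.09.

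In the libraries labelled liver (retina transcriptome), 3 of the 7 genes were higher with roxadustat than with PBS, P4ha1, Plod2 and P4hb, against 1.69% of all genes tested. All 3 had every roxadustat library above every PBS library, as had 1.44% of all genes. With DMOG limma called 0 of the 7 (2 at an unadjusted p under 0.05, P4ha1 and Lepre1), against 1.07% of all genes in either direction, and 0 of the 7 was also the count with limma's array weights.

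P4ha1 had 18.8, 22.9, 17.8, 13.1, 14.9 and 19.0 FPKM in PBS replicates 1 to 6 labelled liver, and 18.3 to 26.5 with DMOG (median 21.7). With roxadustat it ranged from 27.2 to 34.3 (median 31.9). The roxadustat libraries stood above all others, and the PBS and DMOG ranges overlapped. With roxadustat P4ha1 rose by 0.83 ± 0.12 on the log2 scale (adjusted p = 0.000221), a mean 77.3% above that of PBS. With DMOG it was 0.31 (95% interval 0.07 to 0.56, adjusted p = 0.228).

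P4ha2, so responsive with the other label, was variable and not called. The PBS libraries had 7.11, 6.63, 4.52, 3.39, 2.24 and 5.22 FPKM in replicates 1 to 6, and the DMOG libraries 2.99, 2.59, 7.05, 2.90, 2.79 and 2.61. Roxadustat libraries ranged from 4.27 to 8.37 (median 6.92). DMOG replicate 3 lay far above the other 5 DMOG libraries, which all fell between 2.59 and 2.99. Its log2 fold change was −0.42 with DMOG (95% interval −0.94 to 0.10, adjusted p = 0.451) and 0.47 with roxadustat (−0.05 to 0.99, adjusted p = 0.34).

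P4hb ranged from 127 to 149 FPKM with PBS, from 144 to 154 with DMOG and from 152 to 166 with roxadustat (medians 143, 149 and 159). Its rise with roxadustat was small but tight, 0.17 ± 0.04 on the log2 scale (adjusted p = 0.0231), or 12.2% of the PBS mean. The call was lost without PBS replicate 2 or roxadustat replicate 3 or 5 (adjusted p of at most 0.0632), when libraries were brought to one total (0.14, adjusted p = 0.148) and in a fit of the 2 groups alone (adjusted p = 0.0937). With DMOG the log2 fold change was 0.07 (−0.01 to 0.15, adjusted p = 0.422).

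Plod2 ranged from 3.61 to 5.48 FPKM with PBS (median 5.03), from 3.71 to 6.22 with DMOG (median 4.56) and from 6.13 to 8.09 with roxadustat (median 6.68). PBS and DMOG overlapped, and every roxadustat library lay above PBS. The log2 fold change with roxadustat was 0.53 ± 0.12 (adjusted p = 0.0177), and the call was lost without roxadustat replicate 3 (adjusted p = 0.0519). With DMOG the difference was -8e-04 on the log2 scale (95% interval −0.25 to 0.25, adjusted p = 0.998). Plod2 held 23.8 ± 2.91% of the summed Plod FPKM with PBS, a far larger share than in the libraries labelled retina, and 28.4 ± 2.78% with roxadustat.

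Plod1, Plod3 and Lepre1 were not called against PBS with this label. Plod1 ranged from 5.39 to 7.65 FPKM with PBS, 5.36 to 6.89 with DMOG and 7.36 to 8.98 with roxadustat, a log2 fold change of 0.27 with roxadustat (95% interval 0.11 to 0.43, adjusted p = 0.072). It was called without PBS replicate 2 (adjusted p = 0.0333) or with sex as a covariate (adjusted p = 0.0439). Plod3 ranged from 7.74 to 9.35, 7.41 to 10.1 and 9.02 to 10.8 FPKM, with a log2 fold change of 0.19 with roxadustat (0.05 to 0.33, adjusted p = 0.148). Lepre1 ranged from 3.47 to 5.78, 2.70 to 5.48 and 3.44 to 4.66 FPKM, and its log2 fold change was −0.33 with DMOG (−0.62 to −0.05, adjusted p = 0.283).

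Lens transcripts in the libraries labelled liver differed between the treatment groups and varied widely within them. The list of 12 pigment epithelium, lens and sclera markers, none of them at 0 in every library and 4 with a median under 0.5 FPKM, summed to 2194 to 22533 FPKM with PBS, 90.0 to 919 with DMOG and 373 to 11881 with roxadustat. Of its 9 tested members, 4 lens genes were lower with DMOG and 1 with roxadustat, and 0 were higher. Relative depth also differed there, 0.826 to 0.872 with PBS, 0.938 to 1.29 with DMOG and 0.817 to 1.21 with roxadustat. The lens genes alone summed to 14693, 22318, 1959, 2958, 4484 and 13007 FPKM in PBS replicates 1 to 6. DMOG replicate 3, where P4ha2 was highest of the DMOG libraries, had the highest lens sum of that group, 871 FPKM against 10.7 to 275 in the other 5, and the 8 genes other than P4hb all had their highest DMOG value in that library. PBS replicates 1 and 2 had the highest lens sums and the highest P4ha2 levels of the PBS group. Roxadustat replicate 1 had a lens sum of 11743 FPKM and the other 5 had 187 to 821, while P4ha1 was 33.2 FPKM in replicate 1 and 27.2 to 34.3 in the others. Roxadustat replicates 1 and 5 had the highest lens sums of that group and also its highest P4ha2 levels. P4ha2 was 8.19 and 8.37 FPKM in them, and 4.27 to 7.21 in the remaining roxadustat libraries. The part of lens RNA and of depth in the differences of the 8 genes was not tested. Of 10 stellate cell and fibroblast markers tested with this label, limma called 0 with either compound (3 with DMOG and 1 with roxadustat at an unadjusted p under 0.05). Their summed level was 229 to 427 FPKM with PBS, 187 to 319 with DMOG and 225 to 257 with roxadustat. Pigment epithelium markers summed to 62.8 to 234, 47.4 to 167 and 125 to 216 FPKM with PBS, DMOG and roxadustat.

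Compared directly, roxadustat exceeded DMOG for 3 of the 7 genes in the libraries labelled liver, against 0.980% of all genes. P4ha1 was higher by 0.51 ± 0.12 on the log2 scale (adjusted p = 0.0271), Plod1 by 0.35 ± 0.08 (adjusted p = 0.0232) and Plod2 by 0.54 ± 0.12 (adjusted p = 0.0228). The P4ha1 and Plod1 libraries of the 2 treatments did not overlap, as for 1.20% of all genes, and for Plod2 DMOG replicate 3 lay within the roxadustat range. P4ha2 was 0.89 higher (95% interval 0.37 to 1.41, adjusted p = 0.1), and was called without DMOG replicate 3 (adjusted p = 0.0124) or PBS replicate 5. None of the 3 calls held on leaving out DMOG replicate 2 or 6. P4ha1 was also lost without DMOG replicate 4 or roxadustat replicate 1, 3 or 5, Plod2 without DMOG replicate 4 or roxadustat replicate 3 or 5, and Plod1 without roxadustat replicate 4, with adjusted p of at most 0.0831.

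In the libraries labelled retina, limma called 0 of the 7 between the compounds with all libraries kept (2 at an unadjusted p under 0.05, P4ha2 and Lepre1), against 1.86% of all genes higher and 1.14% lower with roxadustat. P4ha2 was lower with roxadustat by 1.09 ± 0.35 (95% interval −1.83 to −0.34, adjusted p = 0.105), and P4ha1 differed by −0.11 (−0.57 to 0.36, adjusted p = 0.853). Without DMOG replicate 5, 4 of the 7 were called, against 9.06% of all genes higher and 7.15% lower. P4ha2 was then lower with roxadustat than with DMOG by 1.53 ± 0.14 (adjusted p = 2.36e-06), P4ha1 by 0.39 ± 0.09 (adjusted p = 0.00464) and Plod3 by 0.43 ± 0.12 (adjusted p = 0.0208), and Lepre1 was higher by 0.22 ± 0.07 (adjusted p = 0.0377). Plod2 differed by 0.09 (−0.18 to 0.36, adjusted p = 0.701) in that fit. By Xist and Y-linked genes, 4 DMOG libraries and 1 roxadustat library with this label were female, and DMOG replicate 5 was male. Sex and compound thus largely went together, the more so without that library. With sex as a covariate and all libraries kept, the P4ha1 difference was 0.0269 (limma, adjusted p = 0.988). The part of sex without DMOG replicate 5 was not tested. Doses and times of the compounds are not given, so these values compare the 2 treatments as they were applied.

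**Figure D4:**
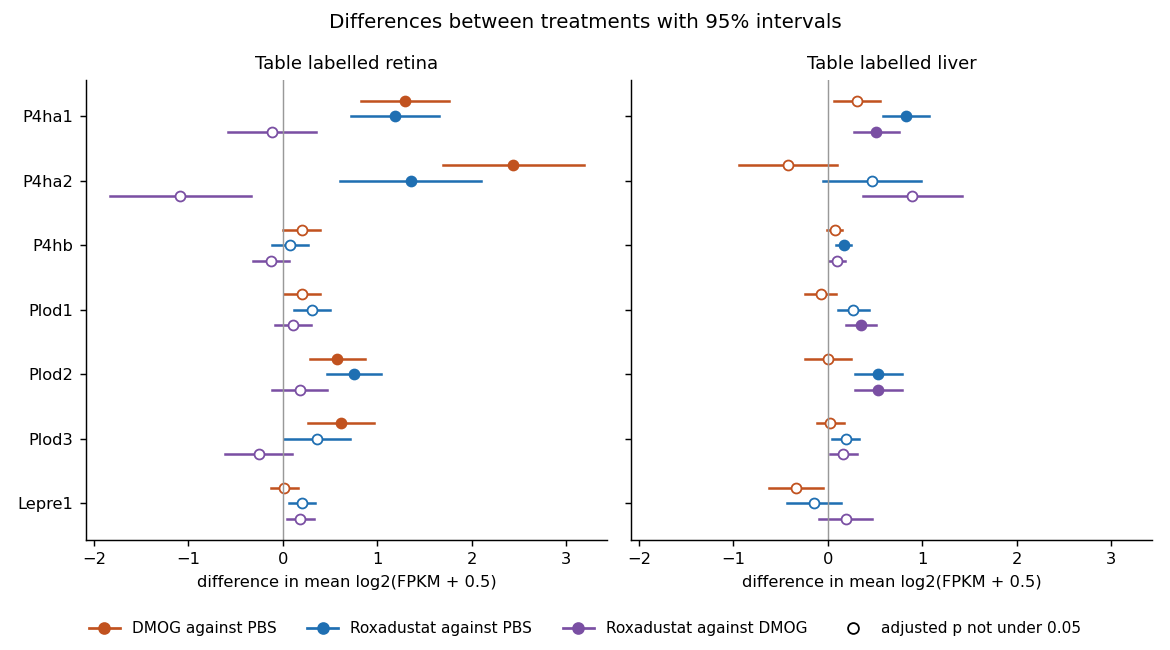
Difference in mean log2(FPKM + 0.5) with its 95% interval for the 7 tested genes, in the table labelled retina (left, liver transcriptome) and labelled liver (right, retina transcriptome); filled points have an adjusted p under 0.05 over all genes of the table, open points do not. The DMOG points of P4ha1, P4ha2, Plod2 and Plod3 are filled on the left, and no DMOG point is filled on the right.

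The difference of each response between the labels was tested itself, over 11101 genes that passed the filter in both tables. For DMOG it was called for 4 of the 7 genes, each with the smaller response in the libraries labelled liver, against 6.97% of all genes in that direction and 15.9% in either. P4ha2 differed by −2.86 ± 0.45 on the log2 scale, labelled liver minus labelled retina (adjusted p = 0.00017), P4ha1 by −0.98 ± 0.26 (adjusted p = 0.00894), Plod3 by −0.59 ± 0.18 (adjusted p = 0.0258) and Plod2 by −0.58 ± 0.19 (adjusted p = 0.0315). The Plod2 call was lost without PBS replicate 1, 2 or 6 or DMOG replicate 2, 4 or 6 labelled liver, or without PBS replicate 3 or DMOG replicate 2 labelled retina. The Plod3 call was lost without PBS replicate 6 or DMOG replicate 3 or 4 labelled retina, and with an equal total per library. When DMOG replicate 5 labelled retina was left out, Plod1 was called as well (−0.36 ± 0.11, adjusted p = 0.0101), 5 of 7 against 28.8% of all genes in either direction. In that fit the difference was −3.31 for P4ha2, −1.26 for P4ha1, −0.76 for Plod3 and −0.67 for Plod2.

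For roxadustat, limma called a difference between the labels for 0 of the 7 (1 at an unadjusted p under 0.05, Lepre1), against 2.24% of all genes. The estimate was −0.36 for P4ha1 (95% interval −0.88 to 0.16), −0.88 for P4ha2 (−1.79 to 0.03) and −0.22 for Plod2 (−0.60 to 0.16). These intervals reach from responses far smaller with the label liver to near equal ones. Left without DMOG replicate 5 labelled retina, limma again called 0, against 4.75% of all genes, and the P4ha2 interval was −1.48 to −0.28 (adjusted p = 0.0786).

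The order of levels also differed between the transcriptomes. With PBS in the libraries labelled retina, P4hb came first, followed by Plod1 at 23.5 ± 1.91 FPKM (SD, n = 6), Lepre1 at 10.3 ± 0.71, Plod3 at 8.59 ± 0.83, P4ha1 at 5.84 ± 0.83, Plod2 at 1.48 ± 0.18, P4ha2 at 0.768 ± 0.153 and P4ha3 at 0.185 ± 0.087. Only Lepre1 and Plod3 overlapped their neighbour in that order. With roxadustat P4ha1 moved above Lepre1 and Plod3 without overlap with Lepre1, and P4ha2 reached the range of Plod2. With PBS in the libraries labelled liver, P4ha1 followed P4hb at 17.8 ± 3.44 FPKM, then came Plod3 at 8.46 ± 0.61. Plod1, P4ha2, Lepre1 and Plod2 followed between 4.69 and 6.47 FPKM with overlapping ranges, and P4ha3 was last. P4hb stayed first and P4ha3 last in all 6 groups.

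Genes with the most similar profile were taken over the 18 libraries of a table, by the root mean square difference of log2(FPKM + 0.5) after centring on the PBS mean. For P4ha2 with the label retina these were Gpi1 (0.220), a glycolysis enzyme gene, Ero1l (0.265), the oxidase that recharges protein disulfide isomerase, and Egln3 (0.278), a HIF prolyl hydroxylase gene. For P4ha1 they were Gys1 (0.163), a glycogen synthase gene, BC004004 (0.177) and Pgam1 (0.187), for Plod2 Rlf (0.205), Apold1 (0.207) and Stc2 (0.212), and for Plod3 Anxa5 (0.119), Ecscr (0.143) and Adamts4 (0.145). With the label liver, Plod2 lay closest to Slc2a1 (0.146), a glucose transporter gene, Loxl2 (0.156), a lysyl oxidase gene, and Ero1l (0.182). P4ha1 lay closest to Gm9790 (0.172), Gpi1 (0.175) and Gm5506 (0.179), P4hb to Eif2b5 (0.0561), Mrps18a (0.0563) and Wdr61 (0.0565), and Plod1 to Hadh (0.0968), Slc41a1 (0.112) and Heyl (0.121). These distances describe profiles in shared libraries and carry no test.

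The partners of the 8 genes in collagen folding were measured beside them. Of 19 tested genes for collagen modification and folding labelled retina, 2 were higher and 2 lower with DMOG (median log2 fold change 0.09, against 0.01 over all genes), and 1 was higher and 1 lower with roxadustat (median 0.0045). Over all genes, 20.0% were called in either direction with DMOG and 4.19% with roxadustat. Tmem38b rose by 0.56 ± 0.10 and Kdelr3 by 0.53 ± 0.12 with DMOG, and Leprel1, a prolyl 3-hydroxylase gene related to Lepre1, rose by 0.41 ± 0.12 with roxadustat (adjusted p = 0.0492). Serpinh1, the collagen chaperone gene, was 37.3 ± 4.10 FPKM with PBS and 39.6 ± 3.97 with DMOG (adjusted p = 0.591), and Crtap and Ppib, the partners of Lepre1, had adjusted p of 0.274 and 0.548 with DMOG. With the label liver, limma called 0 of 19 with either compound (2 with DMOG and 1 with roxadustat at an unadjusted p under 0.05).

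Among the substrates, 16 collagen chains were tested with the label retina. With DMOG, Col12a1 was higher and Col5a3 lower (median log2 fold change −0.19 over the 16). With roxadustat Col12a1 was higher, by 0.42 ± 0.08, and Col1a2, Col6a3 and Col3a1 were lower (median −0.14); Col3a1 fell from 86.3 ± 15.01 to 61.3 ± 9.60 FPKM (adjusted p = 0.046). Over all genes, 20.0% were called in either direction with DMOG and 4.19% with roxadustat. Rescaled to an equal total, 4 chains were lower with DMOG and 5 with roxadustat. In those rescaled fits most genes called over the whole table were also lower. With the label liver, 1 of 24 chains was lower with DMOG, Col6a3, and 1 with roxadustat, Col5a3, and 0 were higher. At an unadjusted limma p under 0.05 there were 12 chains with DMOG and 3 with roxadustat. The median log2 fold change over the 24 was −0.33 with DMOG and −0.18 with roxadustat. Of all genes with that label, 1.07% were called in either direction with DMOG and 2.34% with roxadustat. Of 6 genes for procollagen processing tested in each table, Bmp1 alone was called against PBS with all libraries kept, where it fell by 0.42 ± 0.13 on the log2 scale with DMOG and the label retina.

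P4hb belongs also to the disulfide isomerases and to the microsomal triglyceride transfer protein. Of 17 genes for disulfide isomerases and oxidation in the endoplasmic reticulum labelled retina, Ero1l was higher and Txndc5 and Mttp lower with DMOG. With that label, 20.0% of all genes were called in either direction with DMOG and 4.19% with roxadustat. Ero1l went from 13.6 ± 1.25 FPKM with PBS to 102 ± 48.1 with DMOG and 36.2 ± 4.35 with roxadustat, log2 fold changes of 2.59 ± 0.37 and 1.38 ± 0.37 (adjusted p = 0.000792 and 0.0412). Without DMOG replicate 5, Ero1l rose by 3.06 ± 0.12 with DMOG (adjusted p = 1.89e-11). Mttp, the partner subunit of P4hb in the triglyceride transfer protein, fell from 71.9 ± 7.88 to 55.3 ± 13.2 FPKM with DMOG (adjusted p = 0.0372), a log2 fold change of −0.40 with all libraries and −0.51 without DMOG replicate 5. In the fit without that library, 4 of the 17 were higher and 2 lower with DMOG, against 35.5% of all genes called. With the label liver, Ero1l alone was called, higher with roxadustat by 0.52 ± 0.07 (adjusted p = 0.000137).

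Other hydroxylases that use the same cosubstrates were measured beside the 8. With the label retina, 4 of 11 were higher and 0 lower with DMOG, namely Egln3 (2.51 ± 0.36), Egln1 (1.18 ± 0.17), Jmjd6 (0.57 ± 0.11), a lysyl hydroxylase of splicing factors, and Ogfod1 (0.30 ± 0.07). Of all genes with that label, 8.26% were called higher with DMOG and 2.16% with roxadustat. Egln3 and Egln1 stood at 2.96 ± 0.13 and 1.38 ± 0.10 when DMOG replicate 5 was dropped. With an equal total per library, 4 were higher and 2 lower with DMOG, in a fit where most genes called over the whole table were lower. With roxadustat Egln1 (1.12 ± 0.17), Jmjd6 (0.61 ± 0.11), Egln3 (1.38 ± 0.36) and Leprel1 were higher. With the label liver, limma called 0 of 12 with DMOG (4 at an unadjusted p under 0.05), while Egln1 (0.91 ± 0.07) and Jmjd6 (0.57 ± 0.06) were higher with roxadustat. Of all genes with that label, 1.07% were called in either direction with DMOG and 1.69% higher with roxadustat. P4htm, the transmembrane prolyl 4-hydroxylase gene, was at 27.6 ± 3.73 FPKM with PBS with the label liver and at 0.0948 ± 0.0361 with the label retina, and was not called where it was tested. Of 12 HIF target genes set beside them, 12 were higher with DMOG and 11 with roxadustat with the label retina, and 2 and 10 with the label liver. Egln1 and Egln3 are counted in both of these lists.

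Genes that make or carry ascorbate, the cofactor that keeps the iron of these enzymes reduced, were also measured. With the label retina limma called 0 of 6 with either compound (4 with DMOG and 1 with roxadustat at an unadjusted p under 0.05), and 2 higher and 2 lower with DMOG once replicate 5 was left out, a fit that called 35.5% of all genes. With the label liver it called 0 of 4 with either compound (1 each at an unadjusted p under 0.05).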

How the data were processed

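Total RNA libraries depleted of ribosomal RNA with a stranded kit, per the labels' protocols, gave the FPKM values that the authors deposited as 1 table per tissue label. Per the submitters' processing notes, reads were handled with bcl2fastq 1.8.3, TopHat2 version 2 and Cuffdiff 2.2.1 on mm9; the gene annotation and the scaling between libraries are not given in the sources used here. Because FPKM values carry no counts, depth is unknown, and only relative depth was read, from the spacing of low values; no counting intervals were computed.

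From these values log2(FPKM + 0.5) was computed for genes averaging at least 0.5 FPKM, leaving out a row of totals; 25 genes carry a spreadsheet date as name. Columns of no known sample numbered 0. The 3 treatments of a table were fitted together in limma 3.58.1 (statmod 1.5.0, R 4.3.3) with a trended variance prior, 15 residual degrees of freedom and Benjamini-Hochberg adjustment over all genes of the table at 0.05; "adjusted p" means this throughout. Differences between the labels came from 1 fit over all 36 libraries. Intervals are 95% intervals of the fit. The fit of the 3 treatments was tried on simulated data with independent noise, in which no library stood apart, and only DMOG against PBS was read. It therefore does not cover a spread widened by a single library. Figures were drawn with matplotlib 3.10.9 in Python 3.11.15. All 8 genes were always named; of each other gene list at most the 4 members with the smallest adjusted p were, plus a short set of related genes (such as Egln1, Ero1l, Serpinh1, Crtap, Ppib, Mttp and P4htm), and 3 genes nearest in profile for each called gene. The members and lists were chosen with earlier results of these data known. Alternatives were another pseudocount, other filters, rescaled libraries, array weights, sex, fits of 2 groups, the replicate number as a block and each library left out. Leaving out DMOG replicate 5 labelled retina for lists and ratios, and giving the gene results without it beside the main ones, was chosen after seeing the data.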

Additional observations from a re-analysis of the deposited data

Results flagged for a closer look

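In 4 of 48 groups of 6 libraries, a single library lay far from the others by Dixon's test; chance flags about 1 in 20 groups. P4ha1 in DMOG replicate 5 labelled retina was at 5.36 FPKM, with a median of 18.03 in the other 5. P4ha2 in DMOG replicate 3 labelled liver was at 7.05 FPKM, against a median of 2.79, in the library with the highest lens sum of its group. Plod2 in DMOG replicate 2 labelled retina was at 4.29 FPKM, against 2.21, and the same library had the highest P4ha2 level of its group, 12.9 FPKM. Plod1 in roxadustat replicate 4 labelled liver was at 8.98 FPKM, against 7.74.

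The response to DMOG differed between the labels for 4 genes by the interaction test in limma. The difference, labelled liver minus labelled retina on the log2 scale, was −2.86 for P4ha2, −0.98 for P4ha1, −0.59 for Plod3 and −0.58 for Plod2. The labels differ in transcriptome, and the doses and times are not given.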

How the results depend on the processing

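Leaving out each library in turn gave 4 to 5 calls among the 7 tested genes for DMOG against PBS labelled retina, 2 to 4 for roxadustat against PBS and 0 to 4 between the compounds there. Labelled liver, the counts were 0 to 0, 1 to 3 and 0 to 4 in the same order, and 3 to 5 and 0 to 0 for the differences of the DMOG and roxadustat responses between labels. The higher end of 4 between the compounds labelled retina came without DMOG replicate 5, and labelled liver without PBS replicate 5 or DMOG replicate 3. A filter at a mean of 5 FPKM took P4ha2 and Plod2 labelled retina out of the test, and the genes still called were P4ha1 and Plod3 (2) for DMOG, P4ha1 (1) for roxadustat, and P4ha1 and Plod3 (2) for the DMOG difference. Array weights gave 6 calls for roxadustat against PBS, where 12.6% of all genes were called, and 2 between the compounds labelled retina, where 13.4% were; the cause was not tested. The call of P4ha2 with roxadustat labelled retina was also lost with a pseudocount of 1 (adjusted p = 0.0565) and with no filter (adjusted p = 0.0575).

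Small differences turned sign. Lepre1 with DMOG labelled retina was −0.0756 under an equal total and −0.0112 with array weights, and −0.0198 to 0.0388 over libraries left out. P4ha1 between the compounds labelled retina was 0.0269 with sex as a covariate. Over libraries left out labelled liver, Plod2 with DMOG ran from −0.0788 to 0.0556 and Plod3 from −0.0207 to 0.0645, and the Plod1 difference of roxadustat responses from −0.0827 to 0.0107. None of these was called, and the cause was not tested.

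Same-numbered libraries deviated together in some pairs and not in others. The correlation of their deviations ran from −0.333 to 0.546 labelled retina and from −0.240 to 0.315 labelled liver. In any comparison at most 4 of 6 pairs were over 0.1, and at most 3 of 6 correlated best with their own number. With the replicate number as a block, 4, 4 and 0 genes were called labelled retina (DMOG and roxadustat against PBS, and between them), 0, 3 and 2 labelled liver, and 4 and 0 for the 2 differences of responses. The shares of all genes called in these fits were 22.5%, 4.26% and 3.13%, then 1.0%, 2.47% and 1.27%, and 18.9% and 2.68%. The block added Plod1 with roxadustat labelled retina (adjusted p = 0.033) and lost Plod1 between the compounds labelled liver (adjusted p = 0.0732).

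Over all genes, an equal total per library lowered the share of called genes that were higher from 41.4% to 17.8% for DMOG and from 51.7% to 31.4% for roxadustat labelled retina, and raised it from 62% to 82.6% between the compounds. For the differences of responses it went from 56.1% to 76.8% and from 45.8% to 57.7%. Array weights moved the called genes from 147, 323 and 181 to 551, 512 and 607 labelled liver, from 2526, 530 and 379 to 4240, 1590 and 1692 labelled retina, and from 1763 and 249 to 3191 and 737 for the differences. Fits of 2 groups gave 94 and 190 against PBS labelled liver, and 1229 for roxadustat and 62 between the compounds labelled retina, where sex as a covariate gave 78 and no filter 232. The 5 FPKM filter gave 1655 and 325 against PBS labelled retina and 976 and 113 for the differences, and no filter gave 394 for the roxadustat difference. Leaving out 1 library gave 48 to 420, 211 to 481 and 128 to 263 labelled liver and 1809 to 4489, 344 to 1111 and 104 to 2052 labelled retina, each of the last 3 highest without DMOG replicate 5.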
